A study of Mus musculus with 16 samples.

Results

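*Esr1* encodes estrogen receptor alpha (ERα). In the mouse genome (GRCm38, GENCODE annotation) the gene lies at chr10:4611593-5005614 on the plus strand. The cells described here are the neurons of the adult female mouse hypothalamus and preoptic area in which at least 1 *Esr1* molecule was sequenced. They were chosen by measured values. A barcode was kept when it held more than 200 and fewer than 4000 genes, with under 15% of its unique molecular identifiers (UMIs, one per captured transcript molecule) on mitochondrial genes. It was called a neuron when at least 3 of 8 neuronal genes (*Snap25*, *Syt1*, *Stmn2*, *Snhg11*, *Meg3*, *Celf4*, *Map1b*, *Ndrg4*) were detected, and a member when it also held at least 1 *Esr1* UMI. This rule took 834 members out of 9679 neurons and 55675 kept cells.

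Drop-seq libraries were made from 16 mice, 1 library per mouse, and the replicates below are mice. All were females of a CD-1;129P2 mixed background that were 8 to 10 weeks old at the start. They received 28 daily subcutaneous injections of tamoxifen, a selective estrogen receptor modulator, at 0.1 mg/kg, or of corn oil with ethanol. The groups were wild-type mice given oil (3 mice), wild-type mice given tamoxifen (5 mice), Esr1cKO mice given oil (4 mice) and Esr1cKO mice given tamoxifen (4 mice). In Esr1cKO mice, a Cre transgene driven by *Nkx2-1* (Tg(Nkx2-1-Cre)2Sand) acts on a floxed *Esr1* allele (Esr1tm1Sakh). The wild-type controls were littermates without Cre. *Nkx2-1* marks the developing ventral hypothalamus, so neurons of the dissected tissue from outside that lineage keep the receptor.

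ERα is a nuclear receptor that binds estradiol and then regulates target genes on DNA. In the hypothalamus it is found in kisspeptin neurons of the arcuate nucleus, in the ventrolateral part of the ventromedial nucleus and in the preoptic area, regions known for control of gonadotropin release, energy balance, body temperature and mating. Arcuate kisspeptin neurons also make neurokinin B (*Tac2*) and dynorphin (*Pdyn*), and estradiol is known to lower *Kiss1* and *Tac2* in them. Tamoxifen acts as an agonist or an antagonist of the receptor depending on the tissue.

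The libraries held 2634253 to 8038158 UMIs. Each yielded 26 to 92 members (median 53), and the members together held 1107 *Esr1* UMIs. Of the 834 members, 655 (78.5%) carried a single *Esr1* UMI, 125 carried 2, 30 carried 3 and 24 carried at least 4. Detection followed the depth of a cell. *Esr1* was found in 1.73% of neurons with fewer than 500 UMIs, in 10.5% of those with 2000 to under 4000 and in 20.2% of those with at least 4000. Members had a median of 3191 UMIs and the other neurons 1635. Neurons without an *Esr1* UMI are therefore not neurons without the transcript. Each member was compared with up to 3 *Esr1*-negative neurons of its own library of nearly the same depth, which gave 2413 matched neurons with a median of 3072 UMIs.

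*Meg3* and *Snap25*, used by the rule and so no check of the label, averaged 8142 ± 1674 and 922 ± 182 CPM in members (UMIs of a gene per 1000000 UMIs; SD, n = 16). *Esr1* UMIs were also found outside neurons. They were seen in 2.25% of oligodendrocyte-gated cells (median 740 UMIs) against 8.62% of neurons (median 1729 UMIs). With every cell thinned to 1000 UMIs, which left out shallower cells, the shares were 2.26% and 3.87%. Astrocyte-gated cells (3.76%) and fibroblast-gated cells (3.70%) lay close to neurons on that scale, and microglia-gated cells above them (8.87%). Without thinning, cells with at least 2 *Esr1* UMIs made up 1.85% of neurons and 0.0567% of the shallower oligodendrocyte-gated cells. The share was higher in cells gated as microglia (0.367%), ependymal cells or tanycytes (0.337%) and fibroblasts (0.203%). Barcodes with at most 100 genes, which may hold mostly free RNA (not tested), carried *Esr1* at 27.1 CPM in all, against 42.2 CPM in kept cells. Some members with 1 UMI can thus hold *Esr1* RNA from other cells.

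Members near the threshold can be read from the number of *Esr1* UMIs. *Prlr* was detected in 13.6% of matched neurons with 0 *Esr1* UMIs, 24.4% of members with 1 and 42.5% of members with at least 2. *Tac2* was detected in 4.02%, 10.2% and 25.7% of the same classes. Members with 1 UMI were about as deep as the matched neurons (median 2967 UMIs), whereas those with at least 2 were deeper (median 4325 UMIs).

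Several libraries need to be known before the results. In S10 (wild-type, oil) and S11 (Esr1cKO, tamoxifen) no deposited barcode had fewer than 100 genes, where the other 14 libraries went down to 20. These 2 libraries stood apart on the first principal component of the summed neuron counts (0.661 and 0.641, against -0.205 to -0.028 in the other libraries), and *Esr1* in their kept cells was 16.4 and 10.1 CPM, against 33.2 to 90.8. Also, 109 members (13.1%) had a barcode that another library listed as well, 44 of them among the 220 members of S13 to S16. Scrublet called 14 members doublets. Markers of at least 1 other cell type (2 or more genes of its list) were present in 44.0% of members and 47.5% of matched neurons. Results are given with and without these libraries and cells where that changed them.

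The first question was whether the conditional knockout or tamoxifen altered how many neurons carried *Esr1*. The share of neurons with *Esr1* was 15.7%, 10.02% and 5.13% in the 3 wild-type oil mice. It was 10.2%, 9.09%, 10.5%, 7.71% and 9.31% in the 5 wild-type tamoxifen mice. It was 6.73%, 8.76%, 8.45% and 8.76% in the 4 Esr1cKO oil mice, and 7.55%, 10.9%, 3.67% and 11.7% in the 4 Esr1cKO tamoxifen mice. The groups overlapped throughout. Esr1cKO neurons were 1.5 percentage points below wild-type neurons (mean of the differences within oil and within tamoxifen; p = 0.362, two-sided exact permutation test within treatment, n = 16). These raw shares were not taken at equal depth: neurons without an *Esr1* UMI had a median of 1503 UMIs in wild-type and 1762 in Esr1cKO mice. Thinned to 1000 UMIs, the difference of shares was 1.89 points (exact permutation p = 0.0517), and without S10 and S11 it was 1.99 points (exact permutation p = 0.173). It grew to 2.79 points without S10 (exact permutation p = 0.064) and shrank to 0.15 points without S1 (exact permutation p = 0.899), to 0.70 points without S11 (exact permutation p = 0.694) and to 0.62 points without cells that carried markers of other types (exact permutation p = 0.586). Within successive fours of library numbers, each with 2 mice of either genotype, it was 1.39 points (exact permutation p = 0.332).

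**Figure D1:**
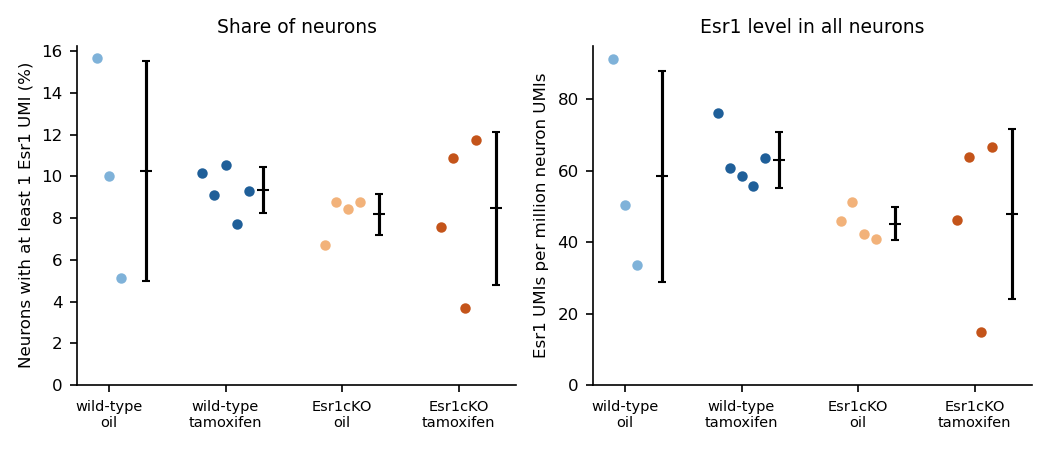
Share of neurons with at least 1 *Esr1* UMI (%, vertical axis) in each of the 16 mice, by genotype and injection; each point is 1 mouse and the bars give the group mean ± SD. The 4 groups overlap, and the lowest mice of the wild-type oil and Esr1cKO tamoxifen groups (5.13% and 3.67%) are S10 and S11.

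With tamoxifen the share moved by -0.91 points in wild-type mice (exact permutation p = 0.696, 56 arrangements) and by 0.28 points in Esr1cKO mice (exact permutation p = 0.943, 70 arrangements). Neither direction was stable: it was 1.79 points without S1 and -3.48 without S10 in wild-type mice, and -0.81 without S15 and 1.88 without S11 in Esr1cKO mice. The level of *Esr1* over all neurons was 33.7 to 91.2 CPM in wild-type mice (median 59.7) and 14.9 to 66.6 CPM in Esr1cKO mice (median 46.1). The ranges overlapped and the log2 fold change was -0.35 ± 0.23 (SE, adjusted p = 1.0 over 16922 genes, edgeR). For *Esr1* alone, the difference between genotypes was -14.2 CPM (exact permutation p = 0.136, a test that was not planned). Counts primed on the poly-A tail read the end of the transcript and do not check the loss of an internal exon, and neurons outside the *Nkx2-1* lineage are included. The members of Esr1cKO mice are therefore neurons with *Esr1* RNA and not neurons shown to have the receptor.

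The second question was what else the members expressed. Over 16 libraries, edgeR's quasi-likelihood test with the library as a block found 34 genes higher in members than in depth-matched neurons (0.222% of the 15307 tested) and 44 lower (0.287%), with Benjamini-Hochberg adjusted p under 0.05. With DESeq2's size factors in place of TMM the split was 61 higher and 31 lower, 65 of these genes being among the 78. The genes that were higher included the prolactin receptor, the neurokinin B, kisspeptin and dynorphin precursors, receptors for neuropeptide Y, and genes of peptide processing. Other hypothalamic peptides, among them cholecystokinin, and 2 vessel genes were lower.

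*Prlr*, the prolactin receptor, gave the smallest adjusted p. It ranged from 68.6 to 426 CPM in members (median 210) and from 29.1 to 154 CPM in matched neurons (median 77.2). The ranges overlapped between mice, but *Prlr* was higher in members in 16 of 16 libraries, by 1.30 ± 0.11 on the log2 scale (SE; adjusted p = 2.5e-10, edgeR). *Prlr* is also a gene that estrogen raises in other tissues, and it was the only one of 13 tested genes of that kind to pass (median log2 fold change 0.31, against -0.08 over all genes). *Greb1*, the best known of them, had 1.07 ± 0.29 (adjusted p = 0.091), and *Pgr*, the progesterone receptor, 0.85 ± 0.26 (adjusted p = 0.171). Both passed with no filter on low counts (adjusted p = 0.0476 and 0.0293), *Greb1* also with no matching (adjusted p = 0.0322) and *Pgr* without shared barcodes (adjusted p = 0.0455).

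Other estrogen receptors were sparse. *Esr2*, the gene of estrogen receptor beta, and *Gper1*, the membrane estrogen receptor, had 26 and 15 UMIs in all members and did not pass (-0.67 ± 0.37 and -0.97 ± 0.50).

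The list of arcuate kisspeptin neuron genes had 4 of its 8 tested genes higher and none lower, with a median log2 fold change of 0.99 against -0.08 over all genes. *Tac2* ranged from 45.4 to 9495 CPM in members (median 963) and from 2.43 to 548 CPM in matched neurons (median 73.1). It was higher in members in 15 of 16 libraries, with S16 (wild-type, tamoxifen) the exception at 366 against 384 CPM, and the log2 fold change was 3.48 ± 0.32 (adjusted p = 4.9e-10). *Pdyn* ranged from 16.5 to 507 CPM in members and from 21.4 to 73.9 CPM in matched neurons (1.65 ± 0.23, adjusted p = 1.7e-05, higher in 12 of 16 libraries). *Kiss1* was sparse, with 30 UMIs in 24 members against 4 UMIs in matched neurons, and was higher in 11 of 16 libraries (3.58 ± 0.57, adjusted p = 0.000246). Esr1cKO members with at least 3 *Tac2* UMIs held 23 of the 30 *Kiss1* UMIs, in 18 cells. Wild-type members held 3 in such cells and 4 in other cells. *Nhlh2*, a helix-loop-helix transcription factor, was the other gene of the list to pass (1.04 ± 0.22, adjusted p = 0.0102). Some of these genes were found in the same cells, pooled over genotypes. Of 113 members with *Tac2*, 61 also had *Pdyn*, and of 24 with *Kiss1*, 20 had *Tac2* and 20 had *Pdyn*.

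Peptide and hormone receptors had 3 of 35 tested genes higher and none lower. Beside *Prlr* these were *Npy1r* (1.20 ± 0.21) and *Npy5r* (1.52 ± 0.32), both receptors of neuropeptide Y, with 135 and 76 UMIs in all members. *Rxfp1*, the relaxin receptor, was higher too (1.50 ± 0.34, adjusted p = 0.0201), as was *Inhbb*, an inhibin and activin subunit (1.63 ± 0.31). Among arcuate genes, 3 of 18 were higher: *Prlr*, *Tbx3* (0.76 ± 0.18) and *Nr5a2* (1.68 ± 0.30), the last pair encoding transcription factors. *Prlr* also stands in the preoptic list, and of the ventromedial list *Pdyn* was higher and *Dlk1* lower (-0.58 ± 0.11). Only *Tbx3* and *Nhlh2* passed among 43 tested hypothalamic transcription factors, and *Ecel1*, an endopeptidase-like gene, was the one of 14 medial amygdala and bed nucleus genes. *Npy5r* and *Nhlh2* lost the call without S15, *Rxfp1* without S5 and *Tbx3* without S7, S11 or S15 (adjusted p from 0.0659 to 0.119).

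Genes of secretory granules and peptide processing had 4 of 14 higher and none lower (median 0.20). *Pcsk1*, a prohormone convertase, ranged from 33.0 to 597 CPM in members and from 16.9 to 121 CPM in matched neurons, and was higher in members in 16 of 16 libraries (1.32 ± 0.14, adjusted p = 5.9e-08). *Nucb2*, the nesfatin precursor, had 0.67 ± 0.12 and *Scg2*, a granin, 0.48 ± 0.09. *Vgf*, a peptide precursor, had 0.70 ± 0.16 but was higher in only 9 of 16 libraries, with 7 lower, and lost the call without any one of S4, S7, S11, S12 or S15 (Esr1cKO; adjusted p from 0.065 to 0.099).

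**Figure D2:**
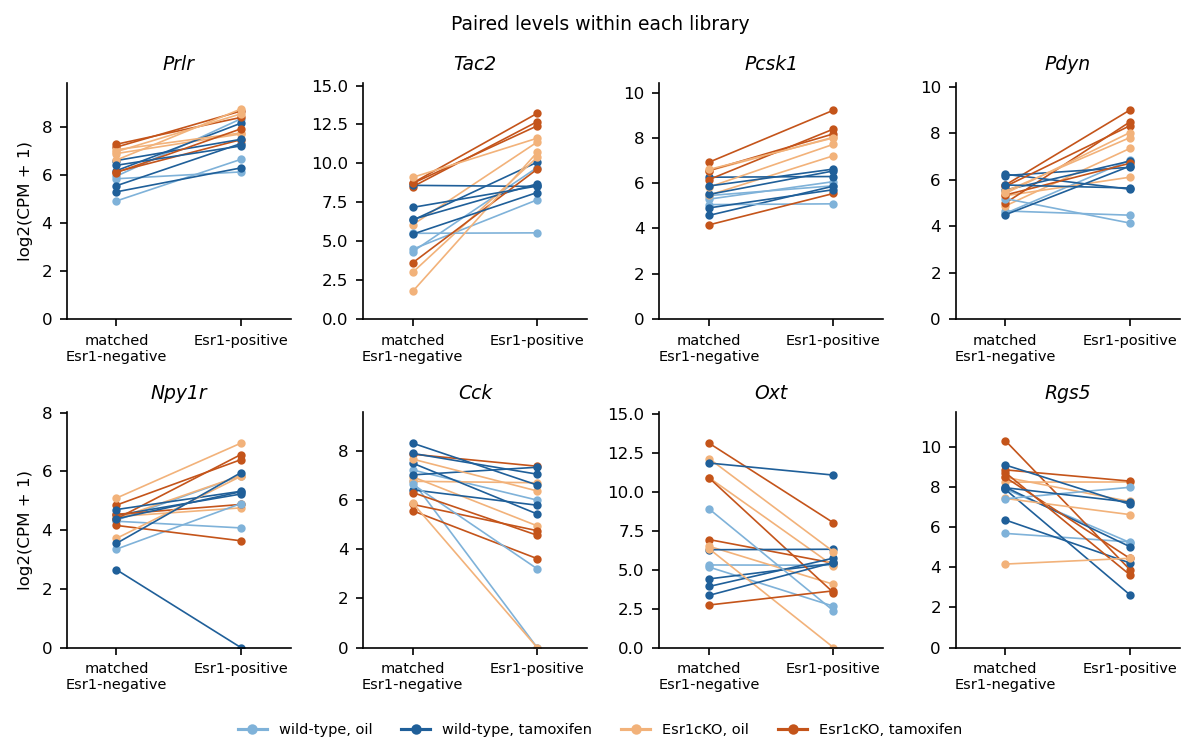
Level of 8 genes in matched *Esr1*-negative neurons and in members of each library (log2(CPM + 1), vertical axis), with a line joining the pair of values of each of the 16 mice, by genotype. *Prlr* and *Pcsk1* are higher in members in 16 of 16 mice, *Tac2* in 15 and *Pdyn* in 12, while *Cck* is lower in 15 and *Rgs5* in 13.

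Neuropeptide precursors split, with 5 of 34 tested genes higher and 5 lower. *Cck*, the cholecystokinin precursor, ranged from 0 to 167 CPM in members and from 46.6 to 320 CPM in matched neurons (median 48.6 against 116) and was lower in 15 of 16 libraries (-1.24 ± 0.18, adjusted p = 4.7e-05). *Vip* (-2.80 ± 0.43) was lower in 12 libraries and *Trh* (-1.63 ± 0.36) in 11, the latter losing the call without S3 or S16 (adjusted p = 0.0565 and 0.0583). *Oxt* (-3.15 ± 0.47) and *Hcrt* (-3.07 ± 0.41), the oxytocin and hypocretin precursors, passed as well but came from few cells: 1 cell held 58.6% of the *Oxt* UMIs and 1 cell 92.5% of the *Hcrt* UMIs of all members. The same holds for *Npvf* on the higher side, where 197 UMIs of a single Esr1cKO library made the log2 fold change of 5.86 ± 0.84, and for the pituitary hormone genes *Lhb* (28 UMIs) and *Cga* (129 UMIs), higher by 3.61 ± 0.73 and 2.64 ± 0.59, *Cga* losing the call without S6, S13 or S15. The sign of *Npvf* turned with DESeq2 (-4.45), and that of *Hcrt* with 1 matched neuron per member (2.22). *Gal*, the galanin precursor and one of the most abundant peptides in members (47.5 to 2624 CPM), did not pass (0.39 ± 0.19, adjusted p = 0.577), though it did with no filter on low counts (0.38, adjusted p = 3.32e-05). Outside the peptide list, *Drd1a* (-2.87 ± 0.64), a dopamine receptor, *8430408G22Rik* (-2.49 ± 0.47) and *Tmem100* (-1.95 ± 0.40) were lower in 14 of 16 libraries each. *Gm15862* (-1.91 ± 0.38) was lower in 10 libraries and lost the call without S2 (adjusted p = 0.177) and without shared barcodes (-0.34, adjusted p = 0.908). *Gm5741* (-2.07 ± 0.41) was detected in 3 libraries only, with 28 UMIs in members and 340 in matched neurons, and lost the call without cells with markers of other types (adjusted p = 0.0753). *Pth2*, a peptide precursor, passed with 0 UMIs in members and 79 in matched neurons of 3 libraries, and lost the call without S9 (adjusted p = 0.0714). *Sncg* (-1.26 ± 0.24) and the calcium binding genes *Pvalb* (-1.35 ± 0.32) and *Calb2* (-0.67 ± 0.13) were lower, as was *Dlk1* (-0.58 ± 0.11), 1 of 19 imprinted genes.

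Genes of fast transmitters were about as frequent in members as in matched neurons. GABA genes alone were detected in 40.8% of members and 41.7% of matched neurons, glutamate transporter genes alone in 21.7% and 20.8%, and both in 6.36% and 5.60%. GABA was more frequent in members in 8 libraries and less frequent in the other 8, and glutamate was more frequent in 6 and less frequent in 10. No gene of the GABA (10 tested) or glutamate lists (6 tested) passed, nor did any of 27 transmitter receptors, 17 receptor coregulators or 24 immediate early genes. *Slc32a1*, the vesicular GABA transporter, passed as lower with no matching (-0.44, adjusted p = 0.0167). *Slc17a6*, a vesicular glutamate transporter, was at -0.21 ± 0.11 (adjusted p = 0.604). Of the immediate early genes 4 lay above 0, and their median was -0.34 on the log2 scale.

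Of the markers of other cells, 1 of 8 mural and 1 of 8 endothelial genes passed, both lower in members. The summed level of 8 mural cell markers had a median of 149 CPM in members and 487 CPM in matched neurons and was lower in 13 of 16 libraries, with *Rgs5* the most abundant gene. Of these, *Rgs5* passed (-1.62 ± 0.26, adjusted p = 0.000246), and *Ly6c1* passed among 8 endothelial markers (-1.24 ± 0.25), whose sum had a median of 431 against 702 CPM and was lower in 12 libraries. No defining marker of either list was at 0. With cells that held 2 or more markers of another type left out, *Rgs5* was at -0.27 (adjusted p = 0.948) and *Ly6c1* at 0.63 (adjusted p = 0.859), while *Prlr*, *Tac2*, *Pcsk1* and *Pdyn* still passed. The lists that picked these cells hold *Rgs5* and *Ly6c1*, so the fall of these 2 genes towards 0 follows from the choice. Oligodendrocyte (8 genes), precursor (7), astrocyte (8), fibroblast (8) and ependymal or tanycyte (8) lists had no gene that passed, with medians from -0.94 to -0.30, nor did 9 microglial genes (-0.16). The pituitary list, which holds *Cga* and *Lhb*, had 2 of 7 tested genes higher, and its sum had a median of 182 CPM in members and 141 CPM in matched neurons.

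The third question was how the members differed between genotypes. With UMIs summed over the members of each mouse, 13 genes were higher in Esr1cKO members and none was lower (0.114% of the 11372 tested, edgeR over 4 groups, mean of both treatments). They encode the peptide precursors *Tac2*, *Pdyn*, *Vgf* and *Chga*, the convertase *Pcsk1*, the granule protein *Ptprn*, the matrix protein *Nov* (listed as Ccn3 in newer annotation), the decoy receptor *Tnfrsf11b* (osteoprotegerin), the cytokine signal inhibitor *Socs2*, the coactivator *Cited1*, the heparan sulfate enzyme *Hs6st2*, the synaptic protein *Clstn3* and the mitochondrial ribosomal protein *Mrps11*. Beyond *Nov*, *Tnfrsf11b* and *Tac2*, which have the largest fold changes, they are named because they passed, after their values were seen. A summed level does not tell more cells with a transcript from more transcript per cell.

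*Nov* had 0 to 39.0 CPM in wild-type members (median 2.06) and 91.4 to 861 CPM in Esr1cKO members (median 187), with no overlap between the 8 mice of each genotype (log2 fold change 5.16 ± 0.55, adjusted p = 1.0e-05). *Tac2* had 45.4 to 1076 CPM in wild-type members (median 369) and 789 to 9495 CPM in Esr1cKO members (median 2888). Of the Esr1cKO mice, only S6 fell inside the wild-type range (3.12 ± 0.46, adjusted p = 0.00131). *Tnfrsf11b* stayed at or below 9.44 CPM in wild-type members and was 10.04 to 83.3 CPM in Esr1cKO members (3.68 ± 0.65, adjusted p = 0.00713).

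*Vgf* had 45.4 to 208 CPM against 204 to 798 CPM (2.24 ± 0.29, adjusted p = 0.000294) and *Pcsk1* 33.0 to 97.5 CPM against 45.7 to 597 CPM (2.15 ± 0.32, adjusted p = 0.00131), the low value again being S6. *Pdyn* had 16.5 to 113 CPM against 67.6 to 507 CPM (2.09 ± 0.35, adjusted p = 0.00555), and *Socs2* 8.57 to 73.2 CPM against 72.8 to 239 CPM (2.02 ± 0.33, adjusted p = 0.00369). *Cited1* did not overlap (28.9 to 82.0 CPM against 107 to 423 CPM, 1.64 ± 0.28), and *Clstn3* barely separated (89.8 to 189 CPM against 192 to 340 CPM, 1.11 ± 0.19). The remaining 4 genes were *Chga* (1.88 ± 0.35), *Hs6st2* (1.47 ± 0.23), *Mrps11* (1.43 ± 0.28) and *Ptprn* (0.98 ± 0.20). Secretory granule genes had 3 of 14 higher and a median of 0.57, against -0.02 over all genes, and 13 of the 14 were above 0. Neuropeptide precursors had 2 of 32 higher, and the 11 tested genes that estrogen raises elsewhere had none (median -0.27).

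**Figure D3:**
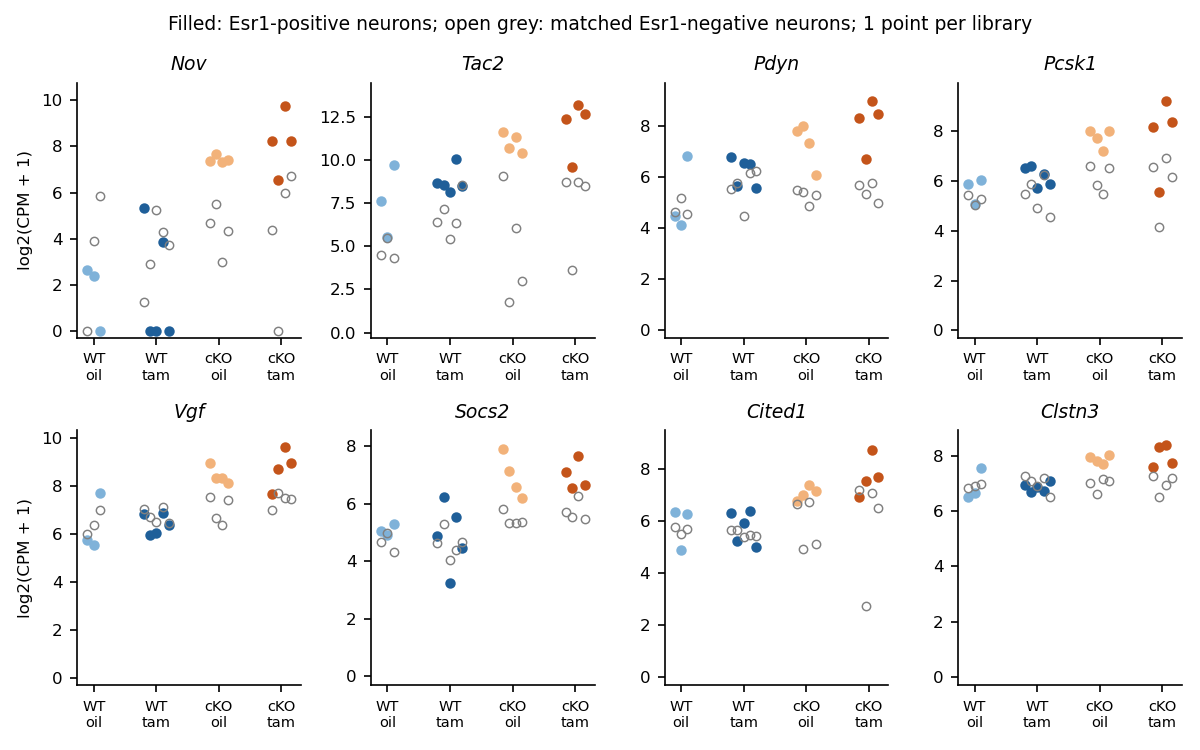
Level of 8 genes (log2(CPM + 1), vertical axis) in members (filled points) and matched *Esr1*-negative neurons (open grey points) of each mouse, by genotype and injection. *Nov* and *Cited1* do not overlap between the genotypes in members, and in *Tac2* the Esr1cKO mouse with 789 CPM (S6) lies within the wild-type range.

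The count rests partly on single wild-type mice: it was 7 genes without S1, 6 without S5 and 36 without S10 (all wild-type, oil), and 28 without S10 and S11 together. *Nov*, *Tac2*, *Vgf*, *Pcsk1*, *Hs6st2* and *Socs2* passed with any single mouse left out. *Pdyn*, *Tnfrsf11b* and *Clstn3* lost the call without S1 or S5 and *Cited1* without S5 (adjusted p from 0.0533 to 0.0727). *Chga* was at 3692 CPM (532 UMIs) in the members of S11 and between 297 and 594 CPM in those of the other Esr1cKO mice, and without S11 its difference between genotypes was 1.18 (adjusted p = 0.00224). It lost the call without any one of S1, S4, S5, S7, S8 and S9, *Mrps11* without any one of 10 mice and *Ptprn* without any one of 13. Markers of other cells moved with genotype as well. The summed level of 8 astrocyte markers had a median of 1246 CPM in wild-type members and 563 CPM in Esr1cKO members, and that of 8 oligodendrocyte markers 1802 and 600 CPM, with overlapping ranges. None of these markers passed, and with the cells that carried them left out, 14 genes passed in place of 13. Over all neurons of the libraries, 3 genes passed (*Nov*, *Tac2* and *Socs2*), with log2 fold changes of 2.44 ± 0.34, 2.54 ± 0.42 and 1.15 ± 0.19, which include the members' own UMIs. With DESeq2 size factors 1 gene passed (*Nov*), and each of the 3 lost the call when certain single mice were left out (adjusted p up to 0.234 for *Nov*, 0.336 for *Tac2* and 0.238 for *Socs2*, each without S5).

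ERα acts on DNA, and the promoters of these genes were read for its binding motif. RefSeq promoter sequences (GRCm38.p6, 250 bases before each start) were matched for 9 of the 13 genes. The full estrogen response element, searched as GGTCANNNTGACC, was in none of them and in 0.0639% of 32851 promoters. The half-site GGTCA on either strand was in 6 of the 15 promoters of these genes, in *Cited1*, *Hs6st2*, *Pcsk1* and *Ptprn*, against 35.2% of all promoters. A match is only a run of letters. The promoters of *Tac2* (chr10:127724228-127724477, plus strand), which has none, and *Pcsk1* (chr13:75089607-75089856, plus strand), with its half-site on the other strand in capitals, are shown as 1 example without and 1 with the half-site. Both genes were higher in members than in matched neurons and in Esr1cKO than in wild-type members, as was *Pdyn*, which is not shown.
Tac2: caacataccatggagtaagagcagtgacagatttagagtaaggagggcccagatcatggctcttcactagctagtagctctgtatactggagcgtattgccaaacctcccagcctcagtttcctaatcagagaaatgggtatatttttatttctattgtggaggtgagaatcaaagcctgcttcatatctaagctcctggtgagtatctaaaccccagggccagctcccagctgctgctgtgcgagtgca
Pcsk1: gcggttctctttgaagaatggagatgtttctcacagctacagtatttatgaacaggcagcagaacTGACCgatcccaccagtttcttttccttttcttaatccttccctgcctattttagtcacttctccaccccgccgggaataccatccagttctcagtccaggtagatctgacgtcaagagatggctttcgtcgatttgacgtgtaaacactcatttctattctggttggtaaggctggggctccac

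The design also allows the test of whether the members' difference from matched neurons of the same mouse depended on genotype. In wild-type mice alone 19 genes passed (0.138% of 13768 tested) and in Esr1cKO mice alone 143 (1.1% of 13034 tested). The latter count fell to 71 without S11, 91 without S7, 70 with a mitochondrial limit of 5% and 42 without cells that carried markers of other types, and the former rose to 32 without S1. In wild-type mice the lower genes included *Npy* (-2.88 ± 0.36, lower in 7 of 8 libraries) and *Gnrh1*, with 1 UMI in members and 737 in matched neurons, 411 of them from S9 and 322 from S13, which DESeq2 did not call (-0.65, adjusted p = 1). Both sets shared 6 genes, which are 31.6% of the wild-type and 4.2% of the Esr1cKO calls: *Prlr*, *Tac2*, *Cck*, *Rgs5*, *Hcrt* and *Chga*, the last with opposite signs. The interaction itself passed for 16 genes, 12 with a more positive difference in Esr1cKO mice and 4 with a more negative one (0.105% of 15307 tested). *Prlr* was not among them, at 1.37 ± 0.18 in wild-type and 1.31 ± 0.14 in Esr1cKO mice.

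*Tac2* was 2.17 ± 0.32 above matched neurons in wild-type mice and 4.53 ± 0.26 above them in Esr1cKO mice (interaction 2.33 ± 0.48, adjusted p = 0.0223). *Nov* was at -0.72 ± 0.66 and 2.99 ± 0.22 (interaction 3.69 ± 0.64, adjusted p = 0.00126), and *Vgf* at -0.26 ± 0.16 and 1.41 ± 0.14 (interaction 1.67 ± 0.22, adjusted p = 7.1e-06). *Pdyn* (interaction 1.96 ± 0.35), *Pcsk1* (1.18 ± 0.24), *Chga* (2.07 ± 0.28), *Chgb* (1.02 ± 0.17), *Hs6st2* (1.09 ± 0.23), *Clstn3* (1.01 ± 0.20) and *Grp* (2.90 ± 0.62) passed too. *Chga* was lower than in matched neurons in 8 of 8 wild-type libraries (-1.05 ± 0.14) and higher in 8 of 8 Esr1cKO libraries (1.02 ± 0.19). *Nov*, *Vgf*, *Pdyn*, *Chga* and *Chgb* passed with any single mouse left out, as did *Oxt*, which was lost under other settings. *Tac2* lost the call without S3, S5, S8, S12 or S16 (adjusted p from 0.0515 to 0.122), *Hs6st2* without S5, S9, S11, S12 or S15, *Pcsk1* without S11 or S13, *Clstn3* without S11 and *Grp* without any one of 6 mice. The other genes to pass rest on few cells: *Tshb* (7.18 ± 1.17) has 90.6% of its member UMIs in 1 cell of S11, and *Ghrh* (-4.69 ± 0.76) has 58.3% in 1 cell, while *Ces1d* (4.43 ± 0.97), *Oxt* (-4.55 ± 0.58), *Ogn* (-4.67 ± 1.03) and *Dcn* (-2.78 ± 0.60) were lost under several alternatives. Of the fibroblast list, which holds *Dcn*, the summed level in members had a median of 91.6 CPM in wild-type and 34.5 CPM in Esr1cKO mice, whose part in the difference was not tested. The count was 10 without S5 (wild-type, oil), 28 without S10 (wild-type, oil) and 9 without S11 (Esr1cKO, tamoxifen).

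**Figure D4:**
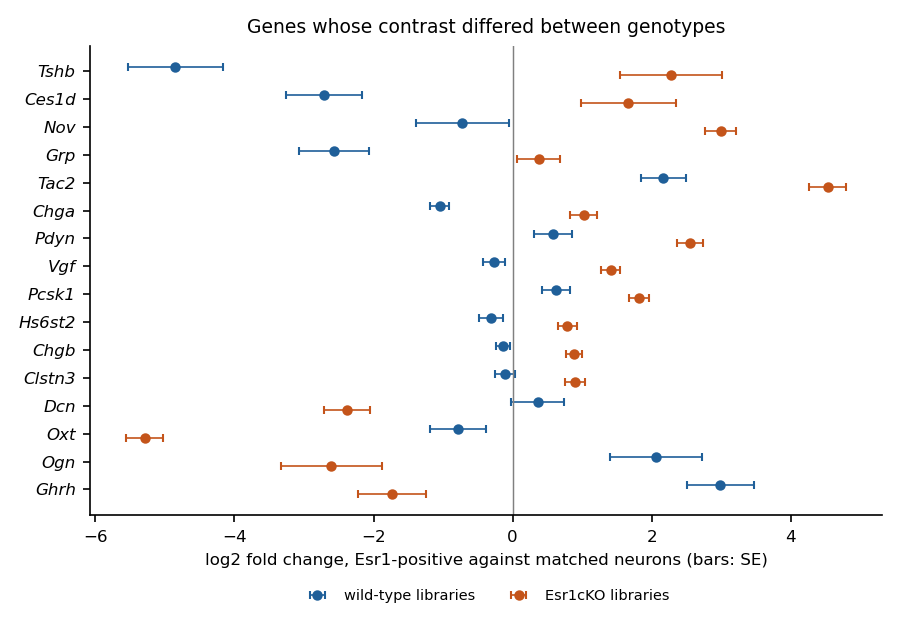
Log2 fold change of members over matched neurons in wild-type mice and in Esr1cKO mice for the 16 genes whose difference between genotypes passed, with SE bars (n = 8 mice each). *Chga* is at -1.05 in wild-type and 1.02 in Esr1cKO mice, and *Tac2* is above 0 in both.

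Several of the genes that differed between genotypes were most abundant in a small set of members. With at least 3 *Tac2* UMIs as the limit, chosen after the values were seen, 88 members were set apart: 38 of 463 in wild-type mice (8.21%) and 50 of 371 in Esr1cKO mice (13.5%). A wild-type mouse had 2 to 9 such cells and an Esr1cKO mouse 1 to 15. The share ranged from 3.45% to 14.5% of the members of a wild-type mouse and from 3.70% to 30% of those of an Esr1cKO mouse. By injection, these cells were 4.32% of members with oil and 9.88% with tamoxifen in wild-type mice, and 9.31% and 18.6% in Esr1cKO mice, pooled over mice and without a test. Per mouse, the share was 3.45% to 7.69% with oil and 7.58% to 14.5% with tamoxifen in wild-type mice. In Esr1cKO mice it was 8.0% to 11.1% with oil and 3.70% to 30% with tamoxifen. The following values describe these cells and are given with no test, since *Tac2* had been found to differ before they were chosen. Within them, *Tac2* was 2282 to 8164 CPM in the 8 wild-type mice and 11350 to 26070 CPM in the 8 Esr1cKO mice, which did not overlap. *Pdyn* came to 317 CPM in all wild-type and 977 CPM in all Esr1cKO cells of the set, *Pcsk1* to 195 and 1013 CPM, *Vgf* to 101 and 1270 CPM, and *Kiss1* to 20.2 and 83.2 CPM (3 and 23 UMIs).

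*Nov* had no UMI in the 38 wild-type cells. It was detected in 76.0% of the 50 Esr1cKO cells, at 787 to 2180 CPM per mouse. In neurons with at least 3 *Tac2* UMIs and no *Esr1* UMI (73 wild-type and 99 Esr1cKO cells) *Nov* was at 4.39 and 456 CPM, *Tac2* at 3138 and 8261 CPM, *Pdyn* at 70.2 and 456 CPM, *Vgf* at 57.1 and 456 CPM, and *Pcsk1* at 79.0 and 374 CPM. These values are pooled over cells and untested, and some mice gave many of the cells: S16 held 35 and S11 54 of all neurons with at least 3 *Tac2* UMIs, members included. The 0 of 38 cells, pooled over 8 mice, allows a share of cells with a *Nov* UMI of up to 7.89%, which limits detection and not expression, and against 3 counts over the 38 cells (20.2 CPM) the pooled Esr1cKO level was at least 64.5-fold higher (counting error only). *Tnfrsf11b* likewise had no UMI in the wild-type cells and 152 CPM in the Esr1cKO cells (42 UMIs), 7.52 times the same 20.2 CPM. Not every gene of these cells was higher in Esr1cKO mice: *Nhlh2* was at 377 and 214 CPM, *Nr5a2* at 249 and 101 CPM, *Inhbb* at 168 and 68.8 CPM, and *Pgr* at 74.1 and 14.5 CPM. The cells were also deeper in Esr1cKO mice (median 5194 UMIs against 4270).

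**Figure D5:**
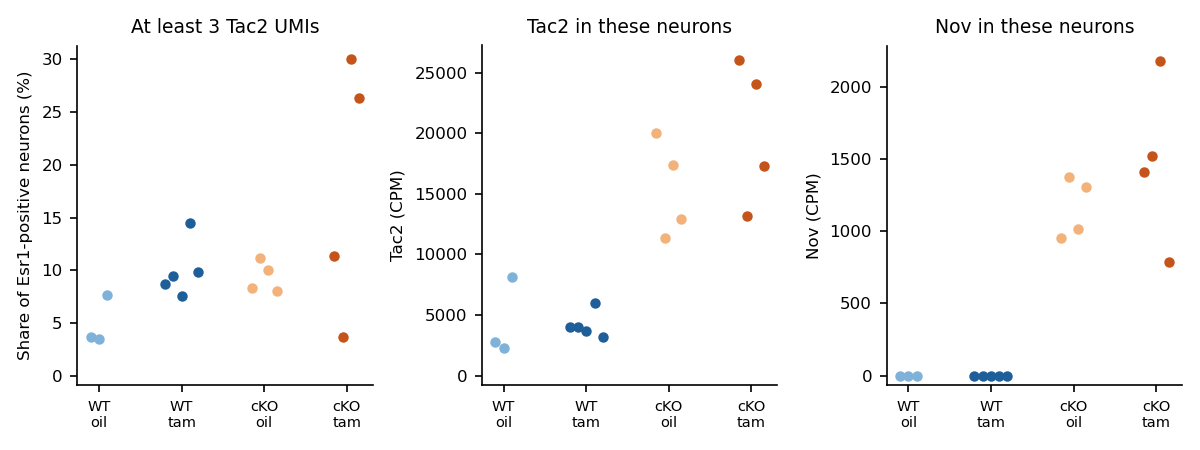
Members with at least 3 *Tac2* UMIs in each mouse: their share of members (%), and the CPM of *Tac2* and of *Nov* in them, by genotype and injection. *Nov* is at 0 in the 8 wild-type mice and at 787 to 2180 CPM in the 8 Esr1cKO mice.

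In the remaining members some of these genes were closer between genotypes. *Nov* was at 10.8 CPM in wild-type and 10.2 CPM in Esr1cKO members, *Pdyn* at 42.6 and 56.5 CPM, and *Pcsk1* at 53.4 and 74.2 CPM. *Chga* (224 and 672 CPM), *Socs2* (31.1 and 107 CPM) and *Vgf* (85.8 and 177 CPM) kept a larger distance, and of the Esr1cKO members' UMIs of *Chga* 725 lay outside the set and 358 in it. The members of S11 held 532 of these *Chga* UMIs. With all neurons of at least 3 *Tac2* UMIs left out, no gene passed between genotypes in members (10965 tested, edgeR, 518 with an unadjusted p under 0.05), and *Socs2* had 1.85 with an adjusted p of 0.197. *Nov* (16 wild-type and 11 Esr1cKO UMIs) and *Tac2* (18 and 9 UMIs) fell below 30 UMIs there and were not tested. Since the neurons left out were picked by *Tac2*, which itself differed between genotypes, the loss of calls does not place the difference in them. Of the 78 genes that set members apart from matched neurons, 28 still passed, *Prlr* and *Cck* among them, while *Pdyn* (0.21), *Pcsk1* (0.25) and *Nr5a2* (0.21) did not. *Nov* (-0.68), *Nhlh2* (-0.20), *Tbx3* (-0.090) and *Vgf* (-0.059), higher in members before, lay below 0 there.

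The last question was the effect of tamoxifen in members. No gene passed in wild-type mice (0% of 11372 tested; 313 with an unadjusted p under 0.05), in Esr1cKO mice (0%; 608) or for the difference of the effects (0%; 455) in edgeR, and DESeq2 gave 0 in each. With no filter on low counts, edgeR gave 22, 44 and 21 genes. Without S10 and S11, 2 genes passed in Esr1cKO mice. *Tac2* was at 201, 45.4 and 850 CPM with oil and 411, 372, 279, 1076 and 366 CPM with tamoxifen in wild-type mice (0.57 ± 0.65, adjusted p = 1). In Esr1cKO mice it was at 3137, 1670, 2640 and 1337 CPM with oil and 5436, 789, 9495 and 6552 CPM with tamoxifen (1.41 ± 0.58, adjusted p = 0.864). *Prlr* moved by 0.20 ± 0.43 and 0.00 ± 0.38, *Pgr* by -0.995 ± 0.57 and -0.93 ± 0.78, and *Greb1* by 0.06 ± 0.61 and 0.59 ± 0.73 in wild-type and Esr1cKO mice. With 26 to 92 members per mouse the SEs leave room for changes of that size. In wild-type mice the smallest p values belonged to *Avp* (5.60 ± 1.59), *Oxt* (5.24 ± 1.52) and *Dgcr14* (4.61 ± 1.33) on the higher side and to *Eea1* (-1.02 ± 0.28), *Cyb5r1* (-1.75 ± 0.50) and *Hdc* (-2.45 ± 0.71) on the lower (adjusted p = 1). In Esr1cKO mice they belonged to *Rbp4* (4.32 ± 0.91), *Gnrh1* (7.41 ± 1.64) and *Lrpap1* (1.01 ± 0.25), and to *Oxr1* (-1.10 ± 0.28) and *Apold1* (-5.05 ± 1.27; adjusted p = 0.77). For the difference of the effects, besides *Oxr1*, they belonged to *Gm2174* (2.57 ± 0.66), *Krt18* (6.91 ± 1.79) and *Prox1* (2.47 ± 0.68), and to *Trpc4* (-3.11 ± 0.72) and *Pth1r* (-5.69 ± 1.51), all short of the threshold. The smallest p of the 3 tests belonged to *Oxr1*, an oxidation resistance gene, whose tamoxifen effects differed by -1.996 ± 0.40 between genotypes (adjusted p = 0.42). It was 116, 94.9 and 75.5 CPM with oil and 174, 177, 197, 196 and 151 CPM with tamoxifen in wild-type members, and 247, 244, 140 and 317 CPM with oil and 119, 68.6, 104 and 120 CPM with tamoxifen in Esr1cKO members.

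Whether tamoxifen acted on members otherwise than on matched neurons of the same mice was tested as well. In wild-type mice *Avp* (6.26 ± 1.21) and *Oxt* (4.22 ± 0.81), the vasopressin and oxytocin precursors, passed (0.0131% of 15307 tested; adjusted p = 0.032 for both). *Avp* in members was 391, 24.8 and 47.2 CPM with oil and 3335, 25370, 6407, 634 and 2862 CPM with tamoxifen, while matched neurons had 3386, 2501 and 5834 CPM and 2978, 7812, 671, 4510 and 282 CPM. The groups of members did not overlap, but for *Oxt* 1 cell held 69.8% of the wild-type member UMIs. *Avp* lost the call without any one of S3, S4, S5, S8, S9, S10, S15 and S16 (adjusted p up to 0.27) and *Oxt* without S3, S4, S5, S7 or S16, falling to 1.22 without S5 (adjusted p = 1). In Esr1cKO mice the vessel genes *Apold1* (-6.21 ± 1.02), *Myl9* (-4.07 ± 0.77) and *Klf2* (-2.62 ± 0.52) passed (0.0196%). *Apold1* lost the call without S11 or S12 (adjusted p up to 0.356), *Myl9* without S6, S11 or S12 and *Klf2* without S4, S6, S11, S12 or S15, *Myl9* falling to -2.02 without S12 (adjusted p = 1). *Apold1* in members was 74.1, 6.99, 187 and 15.6 CPM with oil and 5.66, 0, 0 and 0 CPM with tamoxifen, and the mural marker list that holds *Myl9* was 20.8 to 1318 CPM in Esr1cKO members. DESeq2 gave no gene in either test.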

How the data were processed

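Whole hypothalamus and preoptic area were dissociated and captured by Drop-seq by the authors, who aligned reads with STAR 2.6 to mm10 and deposited 1 matrix of UMI counts per gene and barcode for each of 16 mice. These deposited counts were the starting point of all values, with the scaling stated below. The members, gene lists and named genes were chosen with earlier results of these data known. Genes named are *Esr1* and related genes, the 10 genes with the largest fold change in each direction (at least 50 UMIs), up to 6 per list and 3 per direction for other comparisons, and any others are named after their values were seen.

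Counts were summed per library over members and, for the paired comparison, over up to 3 unused *Esr1*-negative neurons per member within 0.1 log10 UMIs. Genes with at least 30 UMIs were tested with edgeR 4.0.16 (TMM, quasi-likelihood, Benjamini-Hochberg at 0.05), with the library as a block in paired comparisons and without a block between mice. *Esr1* and the 8 neuronal genes stayed out of the tests that the rule touches. The SE is the log2 fold change divided by the square root of F. CPM is per 1000000 UMIs of the summed cells. Shares were compared by exact permutation over mice. Scripts were tested on simulated data. Doublets were called with Scrublet (scanpy 1.11.5) and kept in the results above. Alternatives included DESeq2 1.42.0. Intervals and floors cover counting error only, and members of 1 mouse are not replicates. The results of 2 named genes are not reported here.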

Additional observations from a re-analysis of the deposited data

Results flagged for a closer look

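Among 54 groups of 4 or 5 mice examined for a mouse far from the others, 3 had one, and chance alone gives about 1 in 20. *Chga* was at 3692 CPM in members of S11 (Esr1cKO, tamoxifen), one of the libraries (with S10) that hold no barcode under 100 genes. *Tac2* was at 1076 CPM in members of S13 (wild-type, tamoxifen). The share of neurons with *Esr1* was 6.73% in S4 (Esr1cKO, oil), below the other 3 mice of its group.

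For 16 genes the difference between members and matched neurons itself differed between genotypes (Esr1cKO minus wild-type, log2 scale). It was more positive in Esr1cKO mice for *Tshb* (7.18), *Ces1d* (4.43), *Nov* (3.69), *Grp* (2.90), *Tac2* (2.33), *Chga* (2.07), *Pdyn* (1.96), *Vgf* (1.67), *Pcsk1* (1.18), *Hs6st2* (1.09), *Chgb* (1.02) and *Clstn3* (1.01). It was more negative for *Dcn* (-2.78), *Oxt* (-4.55), *Ogn* (-4.67) and *Ghrh* (-4.69). The change with tamoxifen differed between members and matched neurons for *Avp* (6.26) and *Oxt* (4.22) in wild-type mice and for *Klf2* (-2.62), *Myl9* (-4.07) and *Apold1* (-6.21) in Esr1cKO mice.

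Outside the cells analysed, 50057 barcodes with at most 100 genes held 101 *Esr1* UMIs, at 0 to 48.8 CPM per library.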

How the results depend on the processing

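Over 3546 recomputed values, *Prlr* passed in members against matched neurons under the 17 settings other than single mice left out. Between genotypes in members, *Nov* and *Tac2* passed in each of 12 settings in which they were tested. Without neurons of at least 3 *Tac2* UMIs, both fell below 30 UMIs in members and were not tested. Over all neurons and in the interaction, *Tac2* did not pass in every setting, nor did *Nov* in the interaction. The shares of neurons with *Esr1* passed nowhere (with 1 mouse left out, the tamoxifen tests could not reach 0.05), with differences of -2.79 to -0.15 points between genotypes, -3.48 to 1.79 points with tamoxifen in wild-type and -0.81 to 1.88 points in Esr1cKO mice when 1 mouse was left out, and the *Esr1* level over all neurons moved between -0.49 and -0.16. The counts of genes depended on the setting, and the cause was not tested. For members against matched neurons in 16 libraries (78 genes), the count was 266 with no filter on low counts, 49 with a mitochondrial limit of 5%, 125 without shared barcodes, 45 with 1 matched neuron per member, 248 with no matching, 603 with cells thinned to 1000 UMIs and no matching, 45 with at least 2 *Esr1* UMIs, 30 without neurons of at least 3 *Tac2* UMIs and 9 with no library block. For members against other neurons, here and below, the thinned setting dropped the matching and left out shallower cells. Its counts and values therefore do not show thinning alone. For wild-type libraries (19 genes) the count was 7 with DESeq2, 86 with no filter, 5 with filterByExpr, 60 with at least 5 of 8 neuronal genes, 5 with 1 matched neuron, 45 with no matching, 35 thinned without matching and 8 with at least 2 *Esr1* UMIs. For Esr1cKO libraries (143 genes) it was 52, 266 and 65 with DESeq2, no filter and filterByExpr, 71 without S10 and S11, 42 without cells with markers of other types, 70 with the 5% limit, 83 with 1 matched neuron, 83 thinned without matching and 52 with at least 2 *Esr1* UMIs. For the difference between genotypes (16 genes) it was 10, 83 and 7 with DESeq2, no filter and filterByExpr, 10 without S5 and S6, 26 without cells with markers of other types, 10 with the 5% limit, 8 without shared barcodes, 4 with 1 matched neuron, 10 with at least 2 *Esr1* UMIs and 3 without the *Tac2* neurons.

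Between genotypes in members (13 genes) the count was 102 with no filter, 28 without S10 and S11 and 0 (edgeR; 518 at unadjusted p under 0.05) without the *Tac2* neurons. For tamoxifen, no filter gave 22 genes in wild-type mice, 44 in Esr1cKO mice and 21 for the difference of the effects, while in Esr1cKO mice 2 passed without S10 and S11 and 1 with successive fours of library numbers as a term. For tamoxifen by *Esr1* status, wild-type mice (2 genes) gave 0 with DESeq2, 21 with no filter, 0 with filterByExpr, 1 without S5 and S6, 8 without S10 and S11, 4 with at least 5 neuronal genes, 5 without cells with markers of other types, 0 without doublets and 1 without shared barcodes, and Esr1cKO mice (3 genes) gave 0, 51, 0, 1, 17, 10 and 5 with DESeq2, no filter, filterByExpr, without S5 and S6, at least 5 neuronal genes, without other markers and without doublets. With each mouse left out in turn the counts were 56 to 114 (16 libraries), 13 to 32 (wild-type, highest without S1), 71 to 172 (Esr1cKO, 71 without S11 and 91 without S7), 9 to 28 (difference between genotypes), 6 to 36 (genotypes in members), 0 to 0 for tamoxifen in either genotype, 0 to 1 for its difference (1 without S12), and 0 to 6 and 0 to 19 for tamoxifen by *Esr1* status (19 without S2).

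Signs turned in 15 values of genes that had passed, and among values that had not passed also for the shares with tamoxifen (0.36, 0.41 and 0.63 points in wild-type mice with at least 2 *Esr1* UMIs, without other markers and thinned, and -0.15 and -0.53 points in Esr1cKO mice with at least 2 *Esr1* UMIs and without S5 and S6), for *Gal* (-0.030 with the 5% limit) and for *Esr2* (0.055 when thinned). In members against matched neurons, *Npvf* was at -4.45 with DESeq2 and -0.22 with no matching, *Ly6c1* at 0.63 without cells with markers of other types, *Hcrt* at 2.22 with 1 matched neuron and *Scg2* at -0.047 when thinned, and without the *Tac2* neurons *Nov* was at -0.68, *Nhlh2* at -0.20, *Tbx3* at -0.090 and *Vgf* at -0.059. In the difference between genotypes, *Dcn* was at 1.48 with at least 5 neuronal genes and 1.005 without other markers, and without the *Tac2* neurons *Nov* was at -0.56, *Pcsk1* at -0.36 and *Tac2* at -1.89. *Oxt*, for tamoxifen by *Esr1* status in wild-type mice, was at -0.21 without other markers. The settings without S10 and S11, shared barcodes or *Tac2* neurons, and the fours for the share, were chosen after seeing the data. The study processed mice in fours by day, and the labels used here do not give the day. Successive fours of library numbers were tried in its place. With them as a term 13 genes passed between genotypes in members, 11 of them shared. Depth limits these data: 78.5% of members rest on 1 *Esr1* UMI, and 26 members of a mouse hold few UMIs of a sparse gene.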

Other observations

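*Rxfp1*, the relaxin receptor, passed against matched neurons in wild-type mice (log2 fold change 2.22) but not in Esr1cKO mice (0.62, adjusted p = 0.873), and the difference between genotypes did not pass (-1.59 ± 0.66, adjusted p = 0.936). *Greb1* and *Pgr*, which estrogen raises in other tissues, were at 1.31 (adjusted p = 0.306) and 1.28 (adjusted p = 0.299) in wild-type mice and at 0.77 and 0.33 in Esr1cKO mice, and their differences between genotypes did not pass either (-0.54 ± 0.60 and -0.95 ± 0.51, adjusted p = 1 for both). Except where DESeq2 is named, adjusted p-values are from edgeR.

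*Nov* was detected in 48 members. Of these, 38 were Esr1cKO members with at least 3 *Tac2* UMIs, 5 were other Esr1cKO members and 5 were wild-type members. Pooled over genotypes, 38 of the 48 also had *Tac2*, 41 had *Pcsk1* and 39 had *Prlr*. Among all 834 members, 113 had *Tac2*, 127 had *Pcsk1* and 236 had *Prlr*.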
